A study of Mus musculus with 4 samples.

Results

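The broad binding sites of POU2F3 in mouse intestinal tuft cells are described here. Sites were chosen by their width in the authors' list, and a site was called broad when it measured 600 bp or more on a nuclear chromosome. This rule found 488 sites among 2823 nuclear sites, or 17.3% (exact 95% Clopper-Pearson interval 15.9 to 18.7), and among 2828 sites in all. The other 2335 nuclear sites are called narrower. The data came from ChIPmentation, a form of chromatin immunoprecipitation in which the Tn5 transposase adds the sequencing adaptors on the beads. Tuft cells of male C57BL/6J mice, of no stated age, were taken from the upper 5 cm of the small intestine and sorted by CD45, EpCAM and Siglec F staining. The study had 2 samples with an antibody against POU2F3 and 1 with control IgG, and 1 sample was input DNA. According to the labels the replicates were 2 pools of cells from 3 mice, about 10000 sorted cells were fixed with 1% paraformaldehyde for 10 minutes, and 0.6 µg of antibody was used. No treatment or genotype separated the groups.

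POU2F3 belongs to the POU family of transcription factors, which bind DNA through a POU-specific domain and a homeodomain joined by a flexible linker. Tuft cells are chemosensory cells of the epithelium that detect luminal parasites and metabolites and signal to immune cells, and they do not form without POU2F3. In a peak list the width of a site is the length of DNA over which the reads passed the caller's limit, so it depends on fragment length, depth and the caller as well as on the protein. The labels put the sonicated fragments at 200 to 700 bp. Of the broad sites, 262 (53.7%, 49.2 to 58.2) were wider than 700 bp.

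The list holds 1 score per site, without stating its unit, and no value per sample. Depth is therefore unknown, no value below has a replicate error, and intervals cover the counting of sites only. Where sites cluster, and so are not independent, these intervals are too short. Width chose the sites, and the score comes from the same peak call, so both are described without a test. Positions are 1-based in mm9. Genes and DNA sequence at the sites, and the marker genes that would check the labelled cell type, were not analysed here, because the gene and promoter tables at hand are of GRCm38.p6.

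The broad sites formed the declining upper tail of a width distribution with a dip near 400 bp. In bins of 50 bp the number of nuclear sites was highest from 200 to 250 bp, with 468 sites, and fell to 119 between 350 and 400 bp. It rose again to 154 between 450 and 500 bp and was 147 in the last bin below the threshold. Above the threshold it declined from 134 sites between 600 and 650 bp to 82 between 700 and 750 bp and 27 between 800 and 850 bp. Broad sites were 711 bp wide at the median (quartiles 645 and 809 bp), and 38 of them (7.79%, 5.57 to 10.5) reached 1000 bp. Broad sites covered 371 kb, which was 35.2% of all base pairs in nuclear sites.

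**Figure D1:**
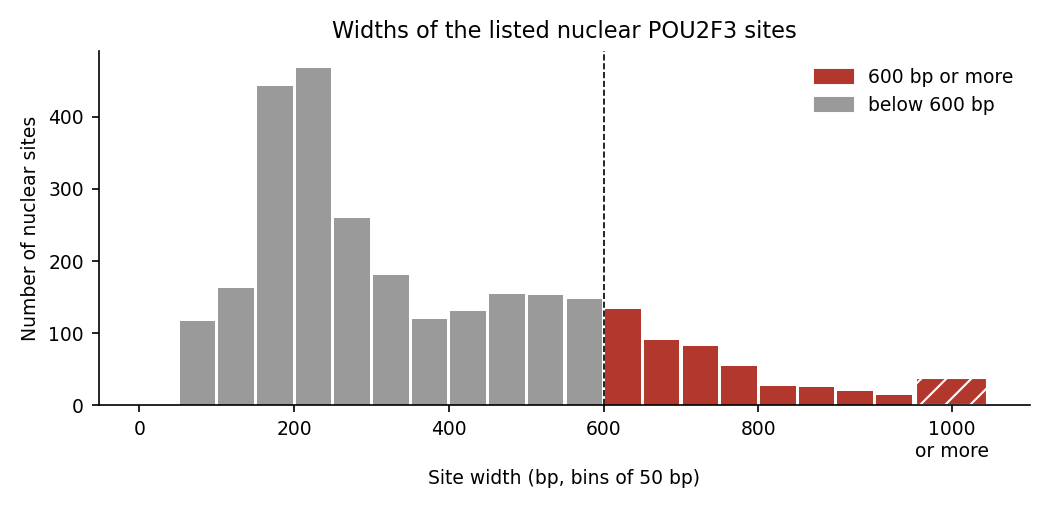
Number of nuclear POU2F3 sites by width, in bins of 50 bp with a single hatched bar for 1000 bp or more. Sites of 600 bp or more are red, narrower ones grey, and the dashed line marks the threshold. Counts dip to 119 between 350 and 400 bp, and the threshold lies on the slope after the second rise, with 147 sites just below it and 134 just above.

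The threshold did not fall at a gap between 2 kinds of site. Exactly 600 bp was the width of 5 sites, and 599 bp that of 4. The first of the broad sites by position at that width was on chromosome 1 at 132236077 to 132236676, with a score of 9.85. Another on chromosome 1, at 138022273 to 138022872, scored 8.86, and one on chromosome 5, at 91067957 to 91068556, scored 10.5. Just outside, the site of 599 bp on chromosome 2 at 6466481 to 6467079 scored 11.2. The site on chromosome 13 at 16607216 to 16607814, of the same width, scored 11.2, and that on chromosome 14 at 103254748 to 103255346 scored 9.17. The 31 sites of 600 to 609 bp had a median score of 9.85, and the 27 sites of 590 to 599 bp one of 9.63.

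Broad sites held most of the high scores of the list. Their median score was 11.1 (exact 95% order-statistic interval 10.8 to 11.4), the quartiles were 9.64 and 12.9, and single scores ran from 5.51 to 29.5. For narrower sites the median was 8.19 (8.12 to 8.27), with quartiles of 7.24 and 9.37. The class of sites next in width, the 585 sites of 400 to 599 bp, lay between them with a median of 9.02 (8.89 to 9.15). The ranges overlapped: 30 broad sites (6.15%) scored below the median of the narrower ones, and 162 narrower sites (6.94%) scored above the broad median. On each of the 20 chromosomes with a broad site the broad median was the higher, by 1.51 on X and by 1.57 (chromosome 8) to 3.75 (chromosome 4) on autosomes.

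The share of broad sites climbed with the score. Nuclear sites were ranked by score and divided into 10 classes of 282 or 283 sites. The lowest class, with scores of 4.41 to 6.61, held 6 broad sites of 282, and the second and the third held 4 and 3. In the sixth class, at scores of 8.53 to 9.04, 23 of 282 sites were broad (8.16%, 5.24 to 12.0). In the seventh class, which begins at a score of 9.04, 51 of 283 were broad (18.0%, 13.7 to 23.0), about the level of the whole list. The highest class, from a score of 11.7, held 192 broad sites of 283 (67.8%, 62.1 to 73.3). Among the 50 sites with a score of at least 15, 42 were broad (84.0%, 70.9 to 92.8).

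**Figure D2:**
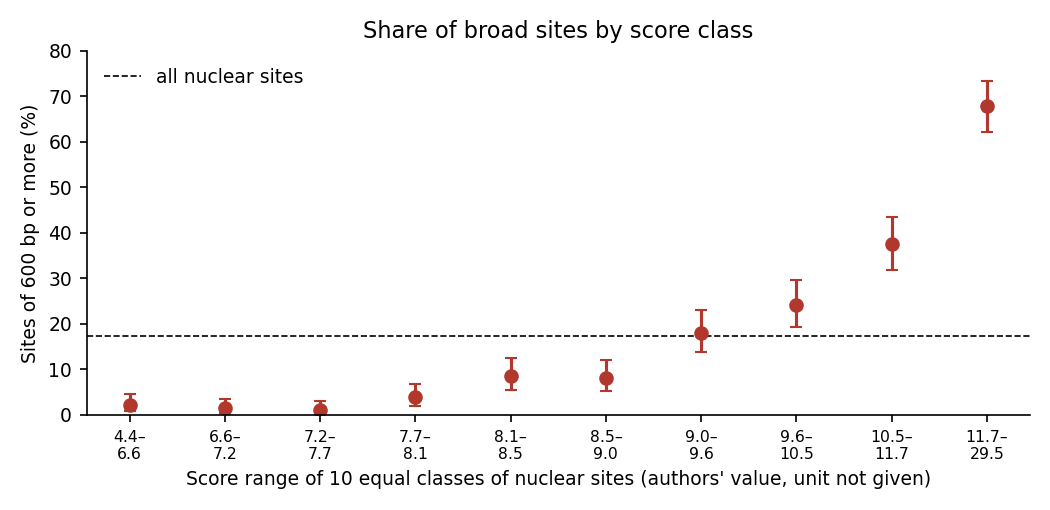
Percent of sites that are 600 bp or wider in each of 10 equal classes of the nuclear sites ranked by score, with exact 95% intervals. The labels on the lower axis give the score range of each class, and the dashed line is the 17.3% of all nuclear sites. The share stays below 10% in the lower 6 classes and reaches 67.8% in the highest.

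The other 8 sites with a score of 15 or more were narrower, and they came in 2 sizes. Sites of 585, 596 and 597 bp on chromosomes 8, 9 and 11 missed the threshold by little, with scores of 15.9, 15.4 and 16.3, and another on chromosome 11 was 461 bp wide with a score of 17.3. The remaining 4 were 223 to 268 bp wide. They include the site on chromosome 8 at 15520072 to 15520336 (score 27.5). A pair on chromosome 6, 118 bp apart, lay at 49186231 to 49186453 (score 23.1) and 49186572 to 49186839 (score 25.9). The site on chromosome 8 and this pair follow the top broad site in the ranking of all nuclear sites. These 8 sites were chosen after their scores were seen.

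Width and score were positively related among broad sites. Spearman's rho was 0.24 and Pearson's r 0.35 over the 488 sites, which share libraries and peak call. Over all nuclear sites rho was 0.57 and r 0.59, and over narrower ones rho was 0.42 and r 0.38. A cut on width narrows its range, so these coefficients are not on equal terms. In the class next below the threshold, the 585 sites of 400 to 599 bp, rho was 0.29 and r 0.28. The widest site carried much of the linear coefficient among broad sites, since r was 0.21 and rho 0.24 without it. The median score was 10.6 for the 225 sites of 600 to 699 bp, 11.6 for the 137 sites of 700 to 799 bp, 11.6 for the 88 sites of 800 to 999 bp and 12.0 for the 38 sites of 1000 bp or more. The intervals of the last 3 medians overlapped (10.8 to 11.8, 10.6 to 12.5 and 10.9 to 14.0), and that of the first class (10.2 to 11.0) reached into them only at its upper end. With a threshold of 800 bp, which left 126 sites, rho was 0.038 and r 0.40. In an alternative chosen after seeing the data, r over these sites was 0.013 and rho 0.014 without the widest one.

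The 10 highest-scoring and the 10 widest of the 488 broad sites had 1 site in common. That site, on chromosome 14 at 15184389 to 15187761, was the top of both rankings scoring 29.5 over 3373 bp. The nearest other site lay 3.11 kb from it and was narrower. The other 9 of the 10 highest-scoring broad sites were 615 to 1094 bp wide. All of these but the one of 615 bp were wider than the broad median of 711 bp.

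After the site on chromosome 14, the second broad site by score was on chromosome 1 at 75163204 to 75164009 (806 bp, score 19.4). The third, on chromosome 6 at 136466864 to 136467957 (1094 bp, 18.9), had another broad site 36.0 kb away. The fourth, on chromosome 7 at 95407572 to 95408349 (778 bp, 18.6), lay 1.48 kb from another broad site. The fifth was alone on chromosome 10 at 86307936 to 86308701 (766 bp, 18.2), with the nearest site of any width 123 kb away. Chromosome 2 held the sixth and the seventh, at 180007897 to 180008750 (854 bp, 17.9) and at 154146075 to 154146789 (715 bp, 17.9). The eighth lay on chromosome 5 at 136702216 to 136703051 (836 bp, 17.9), and no other broad site was listed within 8.17 Mb of it. The ninth, on chromosome 12 at 4417483 to 4418097, was one of the narrowest broad sites at 615 bp and scored 17.9. The tenth was on chromosome 1 at 154664235 to 154665103 (869 bp, 17.8). These 10 sites lay on 8 chromosomes, and 3 of them had another site of any width within 10 kb.

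The 10 widest broad sites lay on 9 chromosomes, and 4 of them had a neighbour within 10 kb. Their median score of 12.0 was above that of broad sites as a whole (11.1, 10.8 to 11.4), though their scores went down to 9.51. The second widest, on chromosome 8 at 74365813 to 74367512 (1700 bp), scored 11.4 and had a narrower site at 181 bp. The third, on chromosome 13 at 111364503 to 111366170 (1668 bp), scored 12.6. The fourth, on chromosome 5 at 109986393 to 109987912 (1520 bp), scored 15.2 and was 479 kb from any other site. Next came a site on chromosome 10 at 115915993 to 115917421 (1429 bp, score 9.94) and one on chromosome 4 at 140842750 to 140844084 (1335 bp, 9.96), both below the broad median. The seventh, on chromosome 9 at 42996501 to 42997769 (1269 bp, 15.4), had a narrower site 294 bp away. The eighth was on chromosome 11 at 116979975 to 116981231 (1257 bp, 13.6). The ninth, on chromosome 4 at 63003480 to 63004731 (1252 bp), had the lowest score of these sites, 9.51, and the tenth, on chromosome 16 at 49874372 to 49875601 (1230 bp), scored 11.2.

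At the other end, 6 broad sites fell in the lowest of the 10 score classes. The lowest, 5.51, was that of a site of 796 bp on chromosome 1 at 90116817 to 90117612. Its nearest neighbour, 163 kb away on chromosome 1 at 90280690 to 90281343 (654 bp), was also among the 5 lowest, at 6.41. Sites on chromosome 12 at 76934476 to 76935084 (609 bp) and on chromosome 8 at 131443035 to 131443641 (607 bp) scored 5.93 and 6.05. A site of 890 bp on chromosome 13 at 5966542 to 5967431 scored 6.13. Large width and low score thus met in 2 of these 5 sites, and the other 3 were 654 bp or narrower.

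Broad sites followed the narrower ones in their counts per chromosome. Over the 19 autosomes and X, the number of broad sites per chromosome ran with that of narrower ones (Pearson r = 0.83 and Spearman rho = 0.84, n = 20 chromosomes, given as a description). Over the same 20 chromosomes it also ran with the span up to the last listed site (r = 0.55 and rho = 0.54). No coefficient was computed for autosomes alone. Chromosomes 1 and 2 had the most broad sites, 35 each, and chromosome 19 the fewest among autosomes, 11. The share of an autosome's sites that were broad ran from 13.3% on chromosome 4 (26 of 196, 8.85 to 18.8) to 23.4% on chromosome 7 (30 of 128, 16.4 to 31.7). For all 19 autosomes the exact interval held the 17.3% of the whole list. Median widths of broad sites by autosome ran from 679 to 751 bp, and their median scores from 9.84 on chromosome 8 to 11.9 on chromosome 4.

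**Figure D3:**
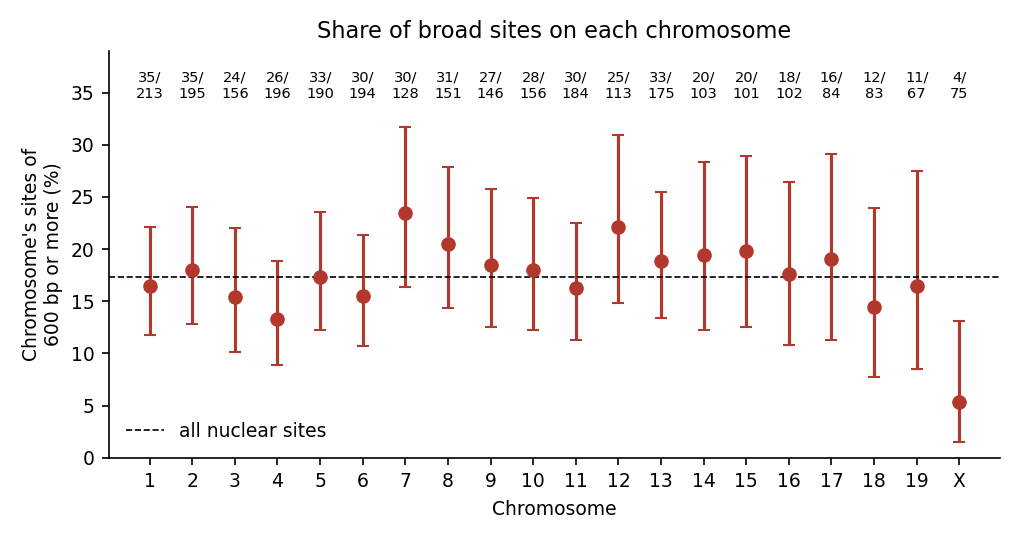
Percent of each chromosome's listed sites that are 600 bp or wider, with exact 95% intervals and the counts of broad and all sites above each point. The dashed line is the 17.3% of all nuclear sites, and Y, with 0 of 11 sites, is not drawn. The intervals of all 19 autosomes cross the line, and that of X (5.33%, 1.47 to 13.1), a single copy in these male mice, does not.

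Per Mb up to the last listed site, autosomes carried 0.20 broad and 0.92 narrower sites. Chromosome 13 had the highest density of broad sites, 0.28 per Mb, followed by chromosome 11 with 0.25, and chromosome 18 the lowest, 0.13. Chromosome 7, with 8.33% of the annotated genes of the GRCm38.p6 table, held 6.15% of the broad sites (4.19 to 8.66) and 4.20% of the narrower ones. Its ratio to the gene share was thus 0.74 for broad and 0.50 for narrower sites. The interval of the broad share contained the gene share on chromosome 7 and on every other chromosome but 13, X and Y. On chromosome 13 the broad share was 6.76% (4.70 to 9.37) against 4.54% of genes and 6.08% of narrower sites. On X it was 0.82% (0.22 to 2.09) against 5.03% and 3.04%, and on Y 0% (0 to 0.75) against 0.78% and 0.47%. Sites are in mm9 and genes in GRCm38.p6, so the gene shares are of another assembly than the sites. On Y the last listed site ended at 1.79 Mb, and how much of the Y of the gene table this covers was not examined. Along the autosomes, 28.9% of broad and 26.1% of narrower sites lay in the last of 5 equal parts of the span to the last listed site. The first part held 13.6% and 14.9%.

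X held 4 broad sites among its 75, or 5.33% (1.47 to 13.1), and Y none among 11, which by the exact interval allows a share of up to 28.5%. The first pair on X was separated by 31.1 kb, at 33610935 to 33611674 (740 bp, score 9.65) and 33642795 to 33643492 (698 bp, score 11.2), and no narrower site was listed within 6 Mb of either. The others were at 72957344 to 72957987 (644 bp, 9.70) and at 138680447 to 138681163 (717 bp, 8.51), so that 3 of the 4 scored below the broad median. Between these 2 there was no broad site over 65.7 Mb, a stretch that held 57 narrower sites. The fullest pair of 1 Mb windows in the list, on X from 121000001 to 123000000, lies in that stretch, and none of its 46 sites was broad (0%, exact upper bound 7.71%). Of the 29 X sites elsewhere 4 were broad (13.8%, 3.89 to 31.7), and this interval includes the share of the whole list. It also includes the 5.33% of all X sites. Those windows were chosen for their high counts, and whether they account for the low share on X was not tested. The mice were male, with a single copy of X and of Y, and site width depends on depth. A trait of the sites on X or Y therefore cannot be told apart from copy number.

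Crowded windows differed widely in how many of their sites were broad. Of the 8 windows of 1 Mb with more than 9 sites, those on X held 46 sites and no broad one. Over all 8 windows 14 of 121 sites were broad (11.6%, 6.47 to 18.7), against 17.3% of all nuclear sites. All 14 of these broad sites thus lay in the windows outside X. The window on chromosome 11 from 112000001 held 5 broad sites of 12, with scores of 9.16 to 14.8, and that on chromosome 13 from 111000001 held 3 of 12, with scores of 10.9 to 14.0. By contrast the window on chromosome 10 from 43000001 held 2 broad sites of 16, that on chromosome 8 from 19000001 held 1 of 14, and that on chromosome 5 from 47000001 held 1 of 11. Apart from the crowded windows, chromosome 2 from 103000001 held 5 broad sites of 8, with a median score of 8.48, and chromosome 16 from 93000001 held 4 of 5, with a median of 10.7. Chromosome 6 from 23000001 held 4 of 8. In all, 297 windows had a single broad site, 64 had 2 and 15 had 3. Windows named here were chosen after their counts were seen.

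The gap to the nearest broad site, edge to edge, had a median of 969 kb with quartiles of 152 kb and 2547 kb. No broad site had another within 200 bp, and 6 (1.23%, 0.45 to 2.66) had one within 1 kb. Within 10 kb the number was 40 (8.20%, 5.92 to 11.0), within 100 kb it was 110 (22.5%, 18.9 to 26.5), and within 1 Mb it was 249 (51.0%, 46.5 to 55.5). Narrower sites lay at a median of 1394 kb from the nearest broad site, with quartiles of 322 kb and 3865 kb, leaving aside 11 on Y, where no broad site was listed. Of all 2335, 139 (5.95%, 5.03 to 6.99) had a broad site within 10 kb, 343 (14.7%, 13.3 to 16.2) within 100 kb and 953 (40.8%, 38.8 to 42.8) within 1 Mb. The intervals of broad and narrower sites overlapped at 10 kb and lay apart at 100 kb and 1 Mb, where the share was higher for broad sites. This is a description only, since both members of a broad pair are counted and sites are not independent. The 2335 also include the 11 sites on Y, which could have no broad neighbour. The longest autosomal stretch without a broad site was on chromosome 4, where 41.8 Mb between positions 63004731 and 104816697 held 47 narrower sites.

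The 40 broad sites within 10 kb of another formed 17 pairs and 2 runs of 3. The closest pair was on chromosome 8, at 105645603 to 105646253 (651 bp, score 11.0) and 105646492 to 105647391 (900 bp, score 11.3), with a gap of 238 bp. The next, with 250 bp, was on chromosome 12 at 53704123 to 53704978 (856 bp, 17.2) and 53705229 to 53706168 (940 bp, 13.8), and both of its scores were above the broad median. On chromosome 10 a gap of 869 bp separated sites at 6884186 to 6884833 (648 bp, 10.2) and 6885703 to 6886680 (978 bp, 10.9). The fourth pair was on chromosome 11, with a gap of 1.42 kb between 68290011 to 68290628 (618 bp, 7.86) and 68292046 to 68292808 (763 bp, 13.0). The fifth joined the high-scoring site of chromosome 7 to one at 95409834 to 95410961, which was wider (1128 bp) but scored 9.40. Over the 21 gaps of up to 10 kb between successive broad sites, the scores on both sides differed by 2.68 at the median and by 9.17 in the pair on chromosome 7. Both sites were at or above the broad median score in 5 of them, 1 site was in 13, and neither was in 3.

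The 2 runs of 3 differed in make-up. On chromosome 8 the closest pair was followed after 2.65 kb by a site at 105650043 to 105650712 (670 bp, score 8.96). This run spanned 5.11 kb and held no narrower site, and the nearest narrower site was over 1 Mb from each of the 3. On chromosome 11 the run spanned 15.9 kb and held 4 narrower sites as well. Its broad sites were at 112673569 to 112674316 (748 bp, 14.6), 112682641 to 112683298 (658 bp, 9.16) and 112687378 to 112688076 (699 bp, 14.2). Pairs of narrower sites lay to the left of the first and of the second, with scores of 10.8 and 8.84 and of 6.27 and 6.45. No narrower site lay between the second and the third, and the nearest one to the third was 5451 bp away. The first and the second broad site each scored higher than the pair of narrower sites next to it.

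**Figure D4:**
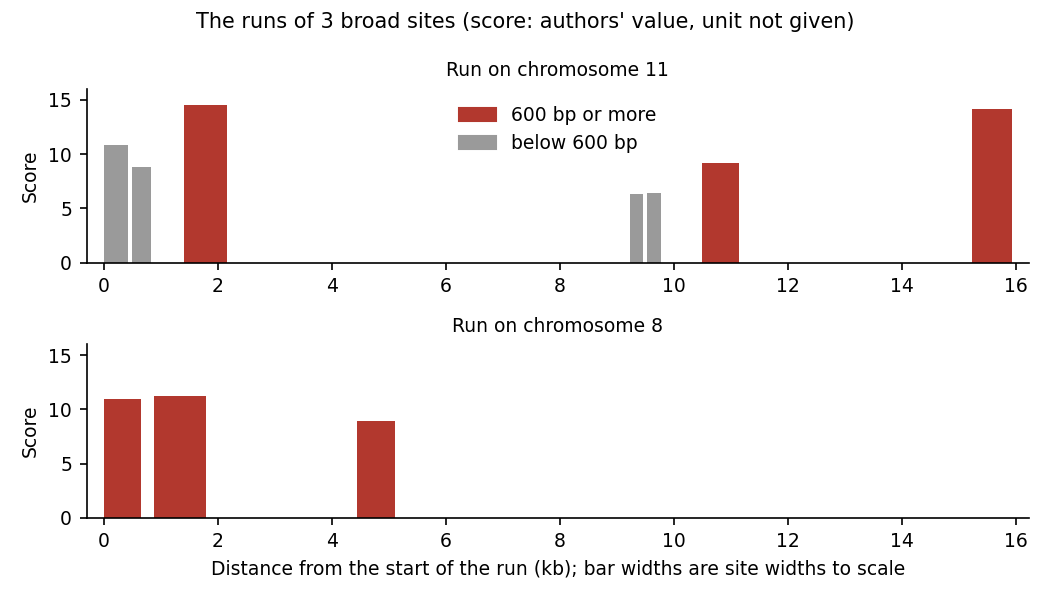
Score (height, authors' value with no unit given) and extent (bar width, to scale) of each site in the 2 runs of 3 broad sites, against the distance in kb from the start of the run, with broad sites in red and narrower ones in grey. The run on chromosome 11 holds 4 narrower sites beside its broad ones with scores of 14.6, 9.16 and 14.2, and that on chromosome 8 holds broad sites alone.

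Narrower sites, the more numerous class, lay nearer to the broad ones than other broad sites did. The gap from a broad site to the nearest narrower site had a median of 111 kb, with quartiles of 12.4 kb and 396 kb. A narrower site was listed within 200 bp of 21 broad sites (4.30%, 2.68 to 6.50), within 1 kb of 39 (7.99%, 5.74 to 10.8) and within 10 kb of 115 (23.6%, 19.9 to 27.6). Of those 115, 83 had 1 such site, 18 had 2 and 14 had 3 or 4. Narrower sites flanked the broad one on both sides in 15 cases. Counting neighbours of any width, 358 broad sites stood alone within 10 kb, 90 had narrower neighbours only, 15 had broad neighbours only and 25 had both.

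Very close neighbours were fewer beside broad sites than beside the narrowest sites of the list. Another site of any width lay within 200 bp of 4.30% of broad sites (2.68 to 6.50), of 3.93% of the sites of 400 to 599 bp (2.51 to 5.84) and of 25.4% of the 1750 sites below 400 bp (23.4 to 27.5). Within 1 kb the shares were 9.22%, 6.84% and 30.1%. Within 10 kb they were 26.6% (22.8 to 30.8) for broad sites, 19.5% (16.4 to 22.9) for 400 to 599 bp and 40.3% (38.0 to 42.6) below 400 bp. At 1 Mb they had come together, at 90.6%, 89.4% and 92.8%. In this respect broad sites were near the class next to them in width at 200 bp, and above it at 10 kb, where the 2 intervals barely overlapped. How far the joining of adjacent signal into 1 listed site sets these shares was not tested.

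**Figure D5:**
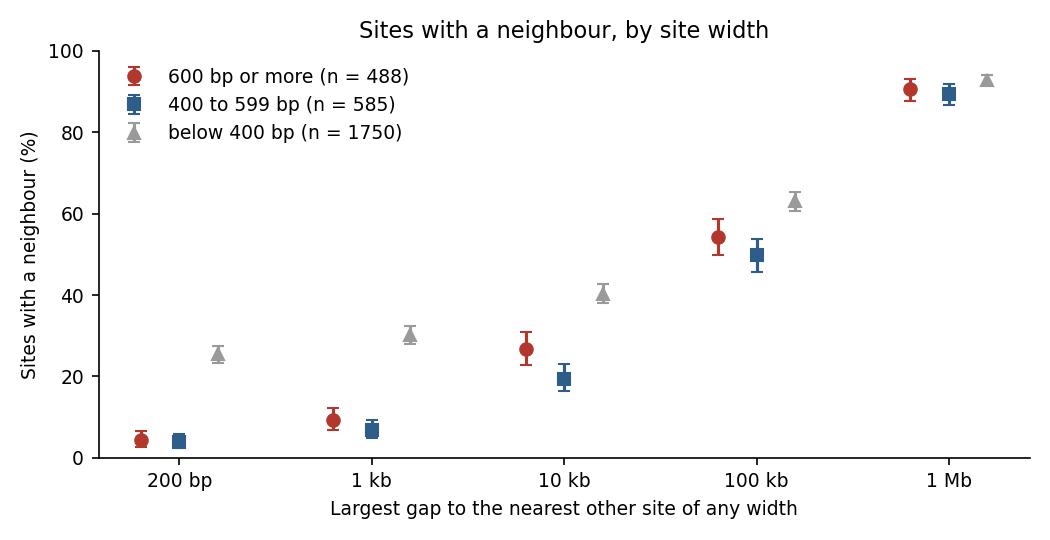
Percent of sites with another site of any width within 200 bp, 1 kb, 10 kb, 100 kb and 1 Mb (gap edge to edge), for 3 classes of width, with exact 95% intervals. Within 200 bp the sites below 400 bp stand at 25.4%, against 4.30% for broad sites and 3.93% for 400 to 599 bp, and at 1 Mb the 3 classes lie between 89.4% and 92.8%.

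The nearest site of any width was broad for 101 of 488 broad sites (20.7%, 17.2 to 24.6) and for 356 of 2335 narrower sites (15.2%, 13.8 to 16.8), while broad sites made up 17.3% of all nuclear sites. These intervals did not overlap, and the share was higher for broad sites, though sites that neighbour each other are not independent. For the 585 sites of 400 to 599 bp the share was 18.6% (15.6 to 22.0), an interval that overlapped that of broad sites. For the 1750 sites below 400 bp it was 14.1% (12.5 to 15.8). Where the nearest site lay within 1 kb, it was broad for 6 of 45 broad sites (13.3%, 5.05 to 26.8) and for 36 of 566 narrower ones (6.36%, 4.49 to 8.70). At over 1 kb to 10 kb it was broad for 17 of 85 broad sites (20.0%, 12.1 to 30.1) and 65 of 253 narrower ones (25.7%, 20.4 to 31.5). At over 10 kb to 100 kb it was broad for 33 of 135 broad sites (24.4%, 17.5 to 32.6) and 90 of 575 narrower ones (15.7%, 12.8 to 18.9). Beyond 100 kb the counts were 45 of 223 (20.2%, 15.1 to 26.1) and 165 of 941 (17.5%, 15.2 to 20.1). Within each of these 4 ranges the intervals of broad and narrower sites overlapped, and the share was higher for broad sites in 3 of them. In the class of 400 to 599 bp the shares were 20.0%, 37.8%, 16.9% and 14.6%, from the nearest range to the farthest. They were above those of broad sites up to 10 kb and below them beyond it.

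Broad sites with and without a neighbour within 10 kb had like widths and scores. For the 130 broad sites with one, the median score was 11.2 (10.6 to 11.7) and the median width 711 bp. For the 358 without, they were 11.0 (10.7 to 11.4) and 711 bp. Among narrower sites the median width was 222 bp with a neighbour and 267 bp without, and the median score 8.08 (7.94 to 8.19) and 8.26 (8.17 to 8.37). For the 139 narrower sites within 10 kb of a broad one, the median score was 8.16 (7.86 to 8.41) and the median width 261 bp. The 3 intervals of the narrower sites' scores overlapped. In 118 of these 139 cases (84.9%) the nearest broad site had the higher score, a count that the choice by width favours, since wider sites score higher in this list.

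Joining of adjacent sites added regions of similar length but lower score. When sites within 1 kb of each other were merged, 2505 regions remained, and 598 of them were 600 bp or wider. Of these, 485 held a broad site, 3 of them a pair, and 113 were made of narrower sites only. These 113 regions held 242 narrower sites, mostly as pairs (103 regions), and the largest held 7. Their median length was 693 bp, against 724 bp for regions with a broad site, and their median best score was 9.35, against 11.1. The choice of regions favours both results. Every region compared had to reach 600 bp, and the 113 hold none of the broad sites, which score higher in this list. On X, 3 such regions were made of narrower sites and 4 held a broad site, and on Y the only region of this length was made of narrower sites.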

How the data were processed

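The deposited data used here are 1 list of POU2F3 binding sites for the whole series, without header, with chromosome, start, end, name and a score in column 5. The score is the authors' value, deposited with 1 number per site, and no source used here states its meaning. FastQC, MACS2, Bowtie 0.12.8, SAMtools 1.3.1 and mm9 are named, with no role or order, per the submitters' processing notes. The sources used here do not say whether the authors called sites in single or pooled samples, nor the control and the cutoff. Such choices set how wide a site is and whether adjacent signal is listed as 1 site or several.

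Starts were raised by 1 to 1-based positions, and width is end minus deposited start. Gaps are edge to edge. Shares have exact 95% Clopper-Pearson intervals and medians exact order-statistic intervals. No test was run, since width chose the sites, the score comes from the same call and sites are not replicates. Gap, run, merging and interval code was tested on simulated data. The members, lists and classes were chosen with earlier results of these data known. Sites were named by rule: the 10 highest scores, the 10 widest, the 5 lowest scores, the 5 closest pairs, runs of 3, those on X and 3 on each side of the threshold. Planned results on genes and sequence were not run for want of an mm9 annotation and genome. Tools were SciPy 1.17.1, NumPy 2.4.6, matplotlib 3.10.9 and pandas 2.3.3 under Python 3.11.15.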

Additional observations from a re-analysis of the deposited data

How the results depend on the processing

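Of 64 alternative values of 8 results, 39 stayed within the main interval (or within 1.5 times, for the number of sites and for r) and 25 moved. Only the coefficients of width and score could change sign, and none did. The approximate 95% interval of rho included 0 at thresholds of 700 bp (-0.0082 to 0.23) and 800 bp (-0.14 to 0.21). Most moves follow from the alternative's own construction. Thresholds of 500, 700 and 800 bp gave 788, 263 and 126 broad sites and median scores of 10.4, 11.6 and 11.6. The share within 10 kb of another broad site was then 11.0%, 3.80% and 3.17%, and at 500 bp the share near a narrower site was 17.9%. For width and score, rho was 0.40, 0.11 and 0.038 at these thresholds, and Pearson's r 0.43, 0.33 and 0.40, against 0.24 and 0.35 at 600 bp. At 500 bp, 32.8% of chromosome 7 sites were broad, at 800 bp 6.25%, and on X at 800 bp 0%. Sites at or above the median score gave a median of 11.4, 11.1% near a narrower site and 38.8% broad on chromosome 7. A distance of 1 kb gave 1.23% and 7.99% for broad and narrower neighbours, and 100 kb gave 22.5% and 48.2%. Chosen after seeing the data, removal of the windows with more than 9 sites gave 13.8% broad on X, and removal of the widest site a Pearson r of 0.21. With each of the 21 chromosomes left out in turn, the median score ranged from 11.0 to 11.2, and the share near another broad site from 7.21% (without 11) to 8.83% (without 1). No paired analysis was possible because the list has no values per sample, which also kept any replicate from being left out. Depth and the calling threshold are unknown, so a region without a listed broad site is not shown to lack POU2F3.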

Other observations

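The 5 sites on the mitochondrial genome entered no comparison. They were 284 to 550 bp wide, so none reached 600 bp, and their scores of 2.24 to 4.64 were all below 5.51, the lowest score of a broad nuclear site.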
